A study of Mus musculus with 28 samples.

Results

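The classical cadherins examined here are 4 genes of the cadherin family: Cdh1 (E-cadherin), Cdh2 (N-cadherin), Cdh3 (P-cadherin) and Cdh11 (OB-cadherin). They were taken by gene name, with every probe set of each, from expression arrays of mouse fibroblasts being reprogrammed to induced pluripotent stem (iPS) cells. The larger of the 2 deposited tables holds 24 arrays, on which the 4 genes are 4 of 11807 named genes and have 5 of 18003 probe sets that name 1 gene. The smaller table holds 4 arrays with 12394 named genes and again 5 probe sets for the 4 cadherins. All 4 genes were measured in both tables, and no filter on low signal was applied.

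The starting cells were mouse embryonic fibroblasts (MEFs) from E13.5 embryos of C57BL6/129 strain, a label given for the 24 arrays. The animals carried a doxycycline-inducible OKSM cassette (Oct4, Klf4, Sox2 and c-Myc) and the Rosa26-M2rtTA allele, in 1 copy (het/het) or 2 copies (ho/ho), and the labels do not say which sample had which. The labels give this strain for the MEF controls and the iPS cells too, and none for the 4 arrays of the smaller table. The sample titles name the MEFs KH2-MEF and the iPS cells KH2-SC_MEF, so the end points carry different names, whose meaning is not resolved here. The intermediates had been kept in ESC medium with serum, LIF and doxycycline. They were sorted on days 3, 6, 9 and 12 into 3 fractions. Thy1+ cells kept the fibroblast surface protein Thy1, Thy1- cells showed neither Thy1 nor SSEA1, and SSEA1+ cells had lost Thy1 and gained the stem cell glycan SSEA1. On day 12 a SSEA1+ GFP+ fraction was also taken, with the reporter behind GFP not named in the labels. MEFs and the fractions of days 3 and 6 have 2 arrays each (M2 and M3, not explained in the labels), the fractions of days 9 and 12 have 1 each (M2), and iPS cells have 3. The iPS cells were labelled Thy1-negative, SSEA1-positive and GFP-positive and had been preplated for removal of feeder cells, so fibroblast RNA from feeders can remain in them. The smaller table holds day 6 SSEA1+ cells split by EpCAM, an epithelial surface protein, with 2 arrays for each side. No label says that arrays of a group came from separate cultures or animals, so the p-values rest on differences between arrays that could be technical.

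Classical cadherins are single-pass membrane proteins that bind the same cadherin on the next cell in the presence of calcium. Their tails hold p120 catenin and beta-catenin, and alpha-catenin links the complex to actin. E-cadherin and P-cadherin are typical of epithelia, and E-cadherin also holds pluripotent cells together in compact colonies. N-cadherin and OB-cadherin are typical of mesenchymal cells, fibroblasts among them. Loss of mesenchymal and gain of epithelial adhesion, the mesenchymal-to-epithelial transition, is a known early event of fibroblast reprogramming.

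Values are deposited RMA signals on a log2 scale, in which a difference of 1 is 2-fold. Each gene was represented by its probe set of highest mean signal, and differences were tested with limma over all genes of a table. A gene was called when its Benjamini-Hochberg adjusted p was under 0.05 and its change was at least 2-fold. A group with 1 array was assumed to vary like the groups with 2 or 3. Array medians lay between 6.835 and 6.988 in the larger table, and no pair of arrays was identical. The number of arrays limits the precision of every value. The day 6 Thy1+ M2 array stood apart in its control probes, with a Gapdh 3' minus 5' difference of 1.78 against 0.58 to 1.11 on the other 23 arrays. In these sorted populations, a lower signal from fewer cells with the RNA cannot be told apart from less RNA per cell.

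The end points carried the markers of their labels. The mean of 12 fibroblast markers was 11.7 and 11.74 in the MEF arrays and 7.37, 7.19 and 7.96 in the iPS arrays 1-5, 1-6 and 1-3. The mean of 12 pluripotent cell markers was 4.47 and 4.46 in the MEFs and 11.36, 11.56 and 11.43 in the iPS cells. Lists for endothelial cells (4.71 to 5.42), keratinocytes (5.18 to 5.69), macrophages (4.48 to 5.1), muscle (4.65 to 5.41) and neural cells (5.55 to 6.18) stayed within these mean levels on the 24 arrays. Single genes of these lists did move against MEFs. Endothelial Tek differed by 3.29 in day 3 SSEA1+ cells. In iPS cells endothelial Pecam1 differed by 3.28, macrophage Cd68 by 3.55 and neural Ncam1 by -3.11.

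**Figure D1:**
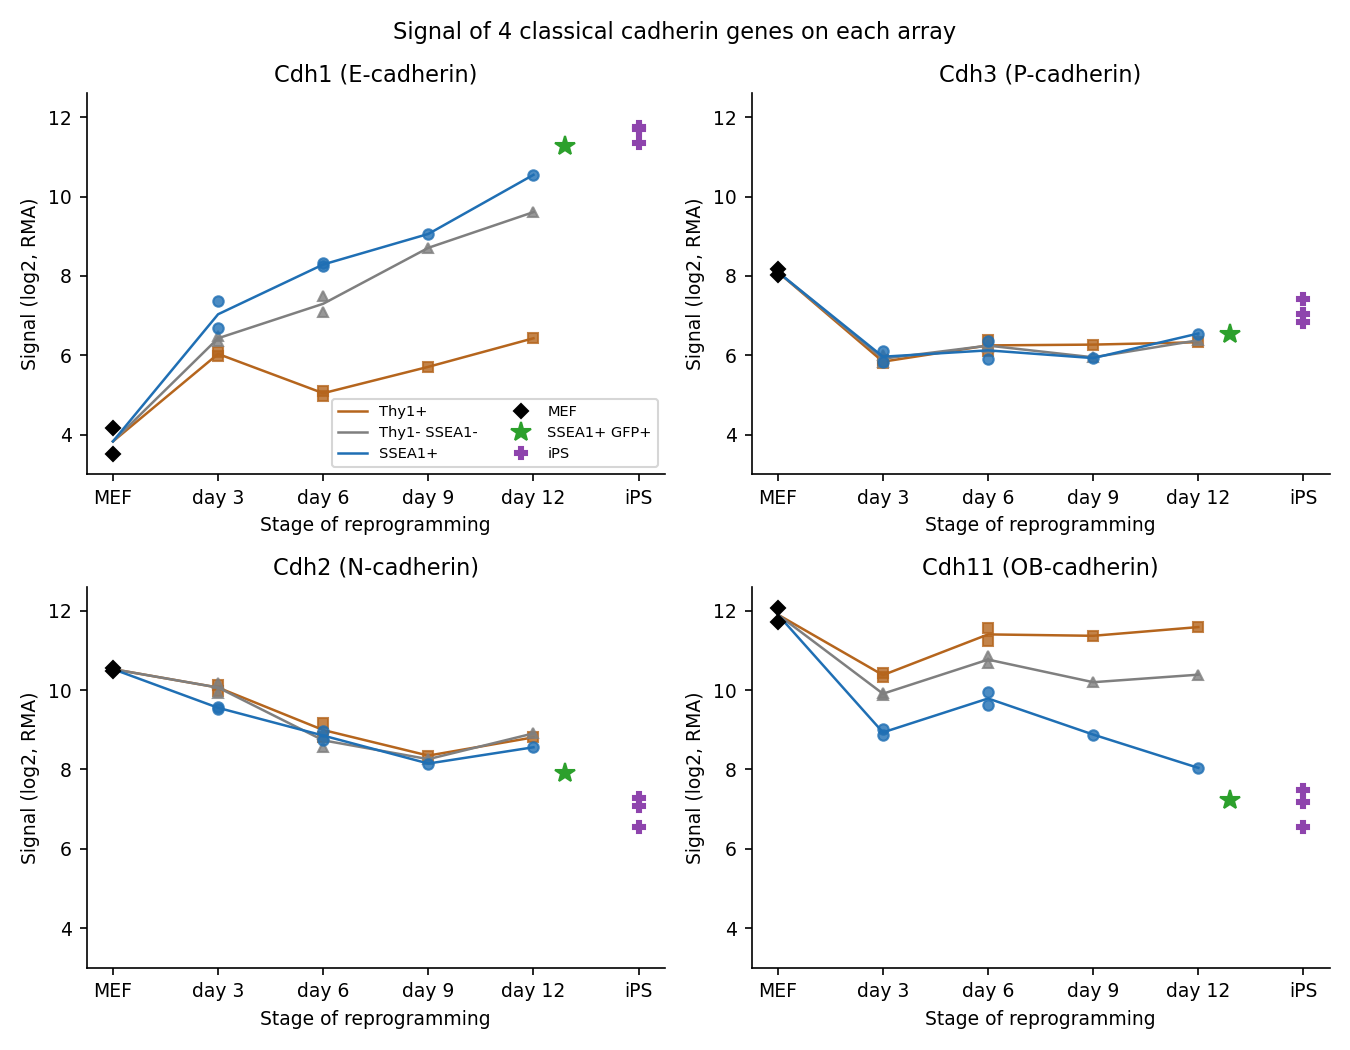
Signal (log2, RMA) of Cdh1, Cdh3, Cdh2 and Cdh11 on each of the 24 arrays, by stage; each point is 1 array and lines join group means from the MEFs on. Cdh1 climbs in the SSEA1+ and Thy1- cells and not beyond 6.43 in Thy1+ cells, Cdh11 is lowest in SSEA1+ cells on each day, and Cdh2 and Cdh3 lie below the MEF points in all 3 fractions.

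Between MEFs and iPS cells Cdh1 rose, and the cadherins typical of mesenchymal cells fell. Cdh1 rose 219-fold, the mesenchymal Cdh11 fell 28.4-fold and Cdh2 fell 11.7-fold. Cdh3, like Cdh1 a cadherin of epithelia, was not higher but 1.99-fold lower, just short of the 2-fold that a call required. So 3 of the 4 genes were called, beside 30.8% of all genes in this comparison (15.4% higher and 15.3% lower).

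Cdh1, the gene of the epithelial adhesion receptor, read 4.16 and 3.5 in the MEF arrays, the 16.3 and 7.2 percentiles of the probe sets on them. In the iPS arrays 1-5, 1-6 and 1-3 it read 11.34, 11.76 and 11.71, between the 95.3 and 96.8 percentiles. The groups were far apart, at a log2 difference of 7.77 (SE 0.22, limma adjusted p = 2.98e-12). Because the MEF signal is close to the low end of the array, the true ratio is less certain than the SE shows. The span of Cdh1 over the 15 group means was larger than that of 99.9% of genes.

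Cdh11, prominent in connective tissue and bone-forming cells, read 11.73 and 12.08 in MEFs and 7.19, 6.55 and 7.48 in iPS cells. Its log2 difference was -4.83 (SE 0.22, limma adjusted p = 2.07e-10). Cdh2, the adhesion receptor of fibroblasts, neurons and heart muscle, read 10.49 and 10.57 in MEFs and 7.09, 6.55 and 7.28 in iPS cells. That is a difference of -3.55 (SE 0.2, limma adjusted p = 1.3e-09). The other Cdh2 probe set gave 10.42 and 10.4 in MEFs and 6.88, 6.4 and 6.96 in iPS cells. For both genes the MEF and iPS arrays lay apart without overlap. The array iPS 1-3 was the highest of the 3 iPS arrays for Cdh11 and Cdh2, and it also had the highest fibroblast marker mean. It was highest too for Cdh3 (7.43) and for the mean of 18 simple epithelial markers (8.72 against 8.05 and 7.92). The part of fibroblast marker RNA in the cadherin values was not tested.

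Cdh3, the P-cadherin gene, lies next to Cdh1 on chromosome 8. In the RefSeq table of GRCm38.p6 only 1 pseudogene and 2 long noncoding RNA genes lie between them. The neighbours did not move together: Cdh3 read 8.18 and 8.02 in MEFs and 6.84, 7.05 and 7.43 in iPS cells. The groups did not overlap, and the log2 difference was -0.99 (SE 0.18, limma adjusted p = 0.000221). Without the iPS 1-3 array it was -1.15, and then Cdh3 was called lower.

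By day 3 every fraction differed from MEFs in Cdh1, Cdh3 and Cdh11. Cdh1 read 7.38 and 6.69 in SSEA1+ cells, 6.49 and 6.37 in Thy1- cells and 5.98 and 6.09 in Thy1+ cells. No day 3 array overlapped the MEFs, and the SSEA1+ arrays were the highest. Against MEFs the log2 differences of Cdh1 were 3.2 in SSEA1+ cells (SE 0.24, limma adjusted p = 1.4e-07), 2.6 in Thy1- cells and 2.21 in Thy1+ cells. The gain of Cdh1 was measured also in the cells that kept Thy1. These 3 comparisons share the MEF arrays, as do those below.

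Cdh11 read 8.86 and 9.01 in day 3 SSEA1+ cells, 9.89 and 9.93 in Thy1- cells and 10.33 and 10.43 in Thy1+ cells. The order was the mirror image of that for Cdh1, with SSEA1+ cells lowest and all arrays below the MEFs. The log2 differences from MEFs were -2.97 (SE 0.24, limma adjusted p = 2.81e-07), -1.99 and -1.53.

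Cdh3 went down by the same step in each fraction. It read 5.83 and 6.1 in SSEA1+ cells, 5.83 and 6 in Thy1- cells and 5.81 and 5.87 in Thy1+ cells. The fractions overlapped each other and lay below the MEFs. The differences were -2.13 (SE 0.19, limma adjusted p = 8.5e-07), -2.19 and -2.26.

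Cdh2 was not called at day 3. It read 9.58 and 9.53 in SSEA1+ cells, a difference of -0.97 (SE 0.21, limma adjusted p = 0.00253) that stayed under 2-fold. In Thy1- cells (10.19 and 9.94) and Thy1+ cells (10.14 and 9.99) the difference was -0.46 for both, with limma adjusted p of 0.142 and 0.151. Thus 3 of the 4 cadherins were called in each day 3 fraction, beside 16.1% of all genes in SSEA1+, 12.3% in Thy1- and 10.7% in Thy1+ cells.

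From day 3 on, SSEA1+ cells added to Cdh1 step by step. The arrays read 8.32 and 8.26 on day 6, 9.06 on day 9 and 10.55 on day 12, with 11.27 in the day 12 GFP+ cells. Each day's arrays lay above those of the day before. The step from day 3 to day 6 was 1.26 (SE 0.24, limma adjusted p = 0.00858) and Cdh1 was the 1 cadherin called in it, beside 1.8% of all genes. Its size hung on the day 3 M3 array, without which it was 0.92 and no longer called, and leaving out either day 6 array also ended the call (1.23 and 1.28). The later steps of Cdh1, 0.77 to day 9, 1.48 to day 12 and 0.72 to GFP+ cells, did not pass the test (limma adjusted p of 0.35, 0.0812 and 0.254). From GFP+ to iPS cells the difference was 0.34 (95% interval -0.26 to 0.94).

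Cdh11 in SSEA1+ cells did not fall evenly. After 8.86 and 9.01 on day 3 it read 9.95 and 9.63 on day 6, 8.88 on day 9, 8.04 on day 12 and 7.22 in GFP+ cells. The day 6 arrays lay above those of day 3, at a difference of 0.86 (95% interval 0.34 to 1.38, limma adjusted p = 0.0703) that was not called. The steps of -0.92, -0.84 and -0.82 that followed were not called either. The GFP+ value lay within the range of the 3 iPS arrays.

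Cdh2 in SSEA1+ cells read 8.97 and 8.74 on day 6, 8.15 on day 9, 8.56 on day 12 and 7.9 in GFP+ cells. From GFP+ to iPS cells it differed by -0.93 (SE 0.25, limma adjusted p = 0.0182), under 2-fold. With its other probe set, tested over all probe sets, the difference was -1.26 (limma adjusted p = 0.000681), which was called, beside 8.2% of probe sets. With that probe set the step from day 3 to day 6 was called too, at -1.08 (limma adjusted p = 0.00306) beside 1.53% of probe sets. The first one gave -0.7 (limma adjusted p = 0.107). Between day 12 SSEA1+ and GFP+ cells the first one gave -0.66 and the other -0.09 (8.1 and 8.01).

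Cdh3 in SSEA1+ cells stayed between 5.9 and 6.55 from day 6 to day 12, with 6.53 in GFP+ cells. All intermediates lay below both MEFs and iPS cells, whose lowest arrays read 8.02 and 6.84. None of the steps after day 3 was called for Cdh3. Over the steps from day 6 to 9, 9 to 12, day 12 to GFP+ and GFP+ to iPS cells, 0 of the 4 cadherins was called, beside 0.644%, 0.576%, 7.18% and 7.23% of all genes. Each of these 4 steps has a group of 1 array, so the lack of calls does not show that levels stayed the same.

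Cdh1, Cdh2 and Cdh11 can be placed on a scale on which the MEF mean is 0% and the iPS mean 100%. On day 3 SSEA1+ cells had covered 41.2% of the way for Cdh1, 61.5% for Cdh11 and 27.3% for Cdh2. On day 12 the figures were 86.4%, 80.1% and 55.4%, and in GFP+ cells 95.7%, 97.1% and 73.9%. The Cdh2 figures are those of its first probe set, and the other hardly moved from day 12 to GFP+ cells (8.1 and 8.01). The 1824 genes called higher in iPS cells had a median of 40.6% on day 3 and 60.9% on day 12, so Cdh1 was at the median first and ahead of 78.4% of those genes later. The 1807 genes called lower had medians of 45.3% and 66.3%. Cdh11 was ahead of 63.1% and 63.3% of them, and Cdh2 of 34.4% and 40.1%. MEF and iPS arrays set both ends of this scale, so it is given with no test.

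**Figure D2:**
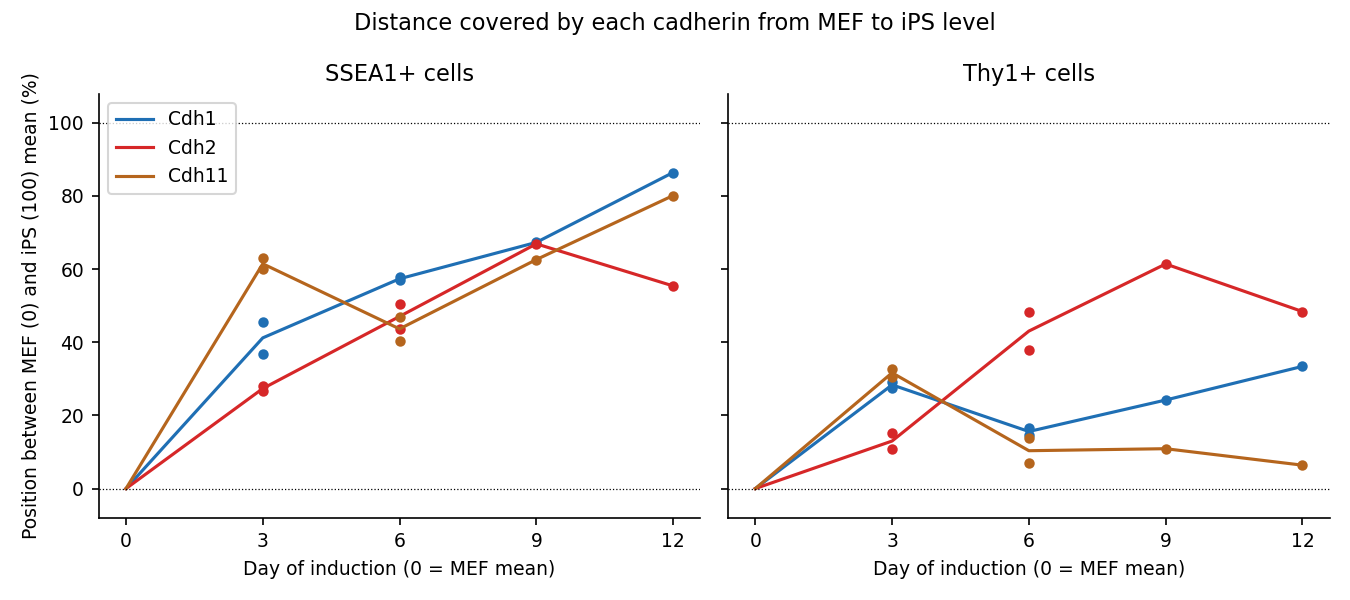
Position of Cdh1, Cdh2 and Cdh11 on the way from the MEF mean (0%) to the iPS mean (100%), against day of induction, in SSEA1+ cells (left) and Thy1+ cells (right); points are arrays and lines join means. In SSEA1+ cells Cdh1 and Cdh11 end at 86.4% and 80.1%, while in Thy1+ cells Cdh2 went farther (48.4% on day 12) than Cdh1 (33.4%) and Cdh11 (6.4%).

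In the cells that kept Thy1, the cadherins took separate courses. Cdh1 read 5.98 and 6.09 on day 3, 5.11 and 4.98 on day 6, 5.71 on day 9 and 6.43 on day 12. All these arrays lay above the MEFs, and day 6 was the lowest day. The mean of days 9 and 12 was 2.24 above MEFs (SE 0.24, limma adjusted p = 9.72e-06) and 0.03 from day 3 (95% interval -0.48 to 0.55).

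Cdh11 returned to near its MEF level in Thy1+ cells. It read 11.24 and 11.57 on day 6, 11.37 on day 9 and 11.59 on day 12, above the 10.33 and 10.43 of day 3 and just below the 11.73 and 12.08 of MEFs. The rise from day 3 to days 9 and 12 was 1.11 (SE 0.24, limma adjusted p = 0.00426). The remaining difference from MEFs was -0.42 (95% interval -0.94 to 0.1).

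Cdh2 in the Thy1+ cells was lower after day 3 than on it. It read 8.81 and 9.18 on day 6, 8.35 on day 9 and 8.81 on day 12, all below day 3 and with the lowest value on day 9. It was lower by days 9 and 12 than on day 3, at -1.49 (SE 0.21, limma adjusted p = 0.00018), and than in MEFs, at -1.95 (SE 0.21, limma adjusted p = 1.2e-05). Cdh3 read 6.38 and 6.12 on day 6, 6.27 on day 9 and 6.33 on day 12, and on the last 2 days differed from MEFs by -1.8 (SE 0.19, limma adjusted p = 9.83e-06). Of the 4 cadherins, 3 were called against MEFs, beside 9.16% of all genes, and 2 against day 3, beside 7.78%.

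Thy1- cells lay between the other fractions for Cdh11 on each day and for Cdh1 likewise. Cdh1 in them read 7.1 and 7.5 on day 6, 8.71 on day 9 and 9.61 on day 12. Cdh11 in them read 10.85 and 10.69 on day 6, 10.2 on day 9 and 10.39 on day 12. From day 6 on, Cdh2 in them lay between 8.26 and 8.91 and Cdh3 between 5.95 and 6.38, within or close to the ranges of the other fractions.

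Across the 4 days the fractions thus differed in Cdh1 and Cdh11 and not, by these calls, in Cdh2 and Cdh3. SSEA1+ cells exceeded Thy1+ cells in Cdh1 by 2.66 (SE 0.36, limma adjusted p = 4.23e-05), with the SSEA1+ arrays higher on 4 of 4 days. They had less Cdh11, by -2.02 (SE 0.21, limma adjusted p = 7.81e-06), also on 4 of 4 days. The difference was -0.29 for Cdh2 (95% interval -0.52 to -0.06, limma adjusted p = 0.0423), under 2-fold. With the other Cdh2 probe set it was -0.31 (limma adjusted p = 0.0761). For Cdh3 it was -0.02 (95% interval -0.23 to 0.19). Of the 4 genes, 2 were called, beside 8.57% of all genes. Fibroblast markers moved with Cdh11: 8 of 12 were lower in SSEA1+ than in Thy1+ cells, beside 5.07% of all genes. The median was -1.76 against 0.02 for all genes. The 12 include Thy1, on which these fractions were sorted, so its difference was set by the sorting. The mean of the 12, Thy1 included, lay between 8.07 and 9.02 in the SSEA1+ arrays and between 9.7 and 10.57 in the Thy1+ arrays. The part of these markers in the result was not tested.

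Between SSEA1+ and Thy1- cells Cdh11 was called, at -1.26 (SE 0.21, limma adjusted p = 0.00602), beside 0.898% of all genes. Cdh1 differed by 0.75 there (95% interval -0.02 to 1.51), and by 0.61, 0.99, 0.35 and 0.94 on days 3, 6, 9 and 12. The fit over days takes a fraction difference as equal on all days. Where such differences change with day, as for Cdh1 below, its SE and interval include that change. Between Thy1- and Thy1+ cells Cdh1 was called, at 1.91 (SE 0.36, limma adjusted p = 0.00834), beside 1.91% of all genes. Cdh11 differed by -0.76 (limma adjusted p = 0.0337), under 2-fold.

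The distance between SSEA1+ and Thy1+ cells was larger on the later days. For Cdh1 it was 1 on day 3 (limma adjusted p = 0.0328, just under 2-fold), 3.25 on day 6, 3.35 on day 9 and 4.12 on day 12. For Cdh11 it was -1.44, -1.61, -2.5 and -3.55, called on each day. All genes were called at 1.73%, 12.1%, 13% and 18.5% on these days. The mean distance of days 9 and 12 exceeded that of days 3 and 6 by 1.61 for Cdh1 (3.74 against 2.12, SE 0.3, limma adjusted p = 0.00283). For Cdh11 the change was -1.5 (-3.02 against -1.52, SE 0.29, limma adjusted p = 0.00449). For Cdh2 and Cdh3 it was 0.1 (95% interval -0.46 to 0.67) and -0.06 (95% interval -0.57 to 0.45). This test of the difference called 2 of 4 cadherins, beside 5.98% of all genes.

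**Figure D3:**
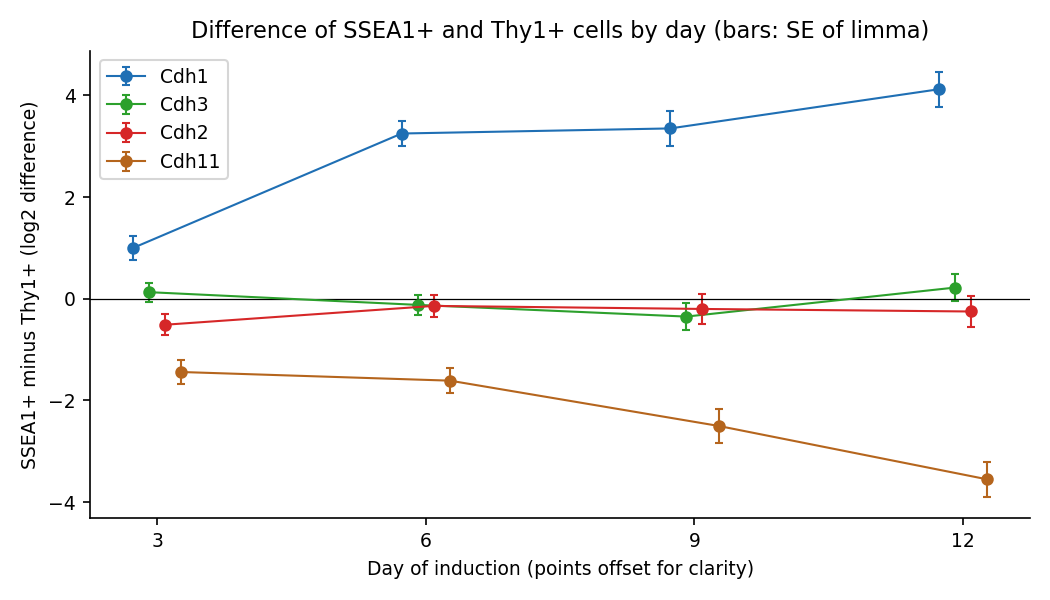
SSEA1+ minus Thy1+ log2 difference of the 4 cadherins on days 3, 6, 9 and 12; bars are the SE of limma, and days 9 and 12 have 1 array a fraction. Cdh1 goes from 1 to 4.12 and Cdh11 from -1.44 to -3.55, while Cdh2 and Cdh3 lie between -0.51 and 0.22.

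Over the 15 groups the mean of Cdh1 ran from 11.6 in iPS cells to 3.83 in MEFs. The gaps between neighbours in that order exceeded the residual SD of 0.27 for 12 of 14 pairs. The 2 pairs whose gaps did not exceed the SD were day 6 Thy1- next to day 3 SSEA1+, and day 12 Thy1+ next to day 3 Thy1-. For Cdh11 7 of 14 gaps exceeded its SD of 0.27, for Cdh2 5 of 14 exceeded 0.23, and for Cdh3 2 of 14 exceeded 0.2. These 2 lay between MEFs and iPS cells and between iPS cells and the sorted intermediates.

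Cdh1 and Cdh11 varied in opposite ways, with r = -0.87 over the 15 group means and -0.8 over the 13 without MEFs and iPS cells. Cdh1 and Cdh2 gave -0.76 and -0.57, and Cdh2 and Cdh11 0.58 and 0.26. Cdh3 had r of -0.08 with Cdh1, 0.06 with Cdh2 and 0.05 with Cdh11 over the 15 groups, and of 0.45, -0.54 and -0.19 over the 13. The groups share the starting culture and sorting scheme, so these are descriptions.

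The genes most like each cadherin were sought among the 2805 genes whose group means spanned at least 2 log2 units, by Pearson's r over the 15 group means. For Cdh1 they were Slc2a3 (a glucose transporter, r = 0.972), Bex4 (0.966), Pard6b (a cell polarity protein, 0.965), Syne4 (0.965) and Zc3h8 (0.963). For Cdh11 they were Pear1 (0.992), Bgn (the matrix proteoglycan biglycan, 0.989), Ccdc80 (0.985), Synpo (an actin-binding protein, 0.985) and Col11a1 (a fibrillar collagen chain, 0.984). For Cdh2 the values were lower, with Casp8 (an apoptotic protease, 0.925), Bin1 (0.925), Slc25a24 (0.903), Ly6c1 (0.897) and Armcx3 (0.878). For Cdh3 they were Cdr2 (0.948), Gjb2 (a gap junction protein, 0.937), Slc1a6 (0.925), Anpep (0.914) and Trib3 (0.912).

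When day 6 SSEA1+ cells were split by EpCAM, the cadherins called were Cdh1 and Cdh11. Cdh1 read 10.02 and 9.45 in EpCAM+ cells against 8.11 and 7.99 in EpCAM- cells, a difference of 1.69 (SE 0.19, limma adjusted p = 0.0149). Cdh11 read 4.41 and 4.08 against 5.67 and 5.81, a difference of -1.5 (SE 0.13, limma adjusted p = 0.00772). Neither pair of groups overlapped. The Cdh11 arrays of EpCAM+ cells stood at the 27.3 and 22.2 percentiles, so low signal can limit the size of that difference. The sorted protein's own gene, Epcam, differed by 2.94 (SE 0.13, limma adjusted p = 0.00116).

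Cdh2 read 9.02 and 8.62 in EpCAM+ against 9.2 and 9.29 in EpCAM- cells and differed by -0.43 (95% interval -0.78 to -0.07, limma adjusted p = 0.185), while its other probe set read 7.63 and 7.23 in EpCAM+ against 7.68 and 7.99 in EpCAM- cells. Cdh3 read 4.78 and 4.96 against 4.74 and 4.68, a difference of 0.16 (95% interval -0.08 to 0.4). Its arrays stood between the 30.6 and 33.4 percentiles, where low signal can hide a difference. So 2 of 4 cadherins were called, beside 0.75% of all genes. In the same comparison 2 of 14 fibroblast markers were called lower and 7 of 13 pluripotent cell markers higher, beside 0.266% and 0.484% of all genes. Dcn of the fibroblast list read higher in EpCAM+ cells (7.17 and 6.9 against 6.33 and 6.17), as did Thy1, S100a4 and Lum. The part of these markers in the cadherin values was not tested. With any 1 of these 4 arrays left out, neither Cdh1 (1.4 to 1.97) nor Cdh11 (-1.66 to -1.33) was called. The calls over all genes then went from 93 to between 0 and 6, with 1 degree of freedom left in the fit. This table was processed apart from the 24 arrays, and levels are not compared between them.

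**Figure D4:**
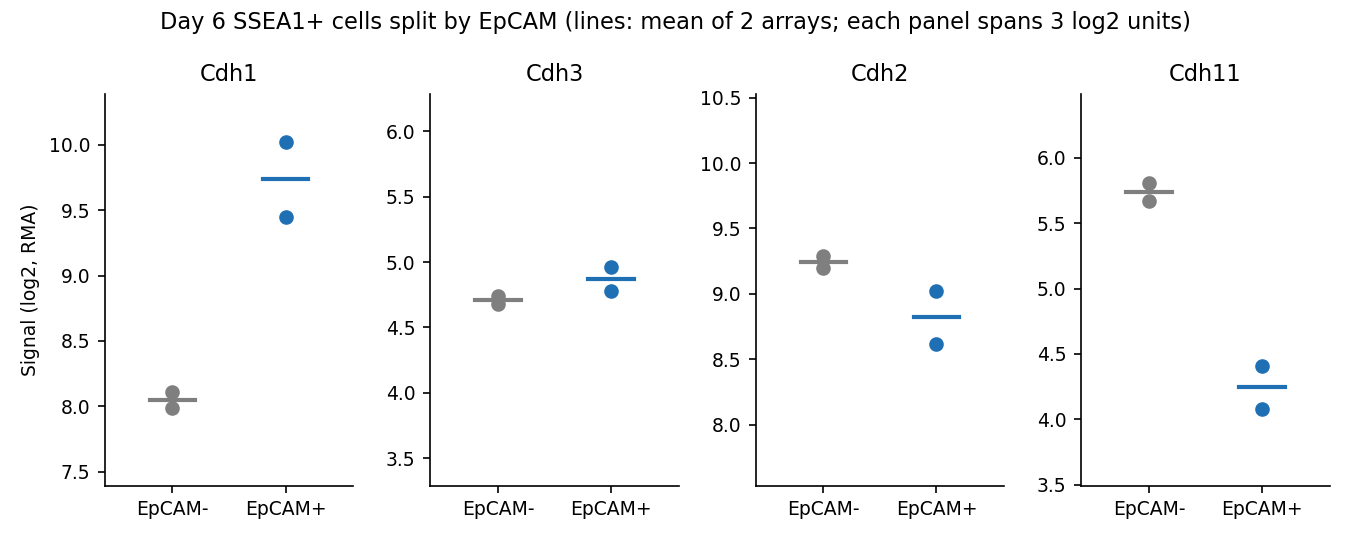
Signal (log2, RMA) of Cdh1, Cdh3, Cdh2 and Cdh11 in day 6 SSEA1+ cells without and with EpCAM; points are the 2 arrays of each group, lines their means, and each panel spans 3 log2 units. Cdh1 is higher in EpCAM+ cells (10.02 and 9.45 against 8.11 and 7.99), Cdh11 lower (4.41 and 4.08 against 5.67 and 5.81), and the other two differ less.

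The main catenins that bind cadherin tails were not called in the comparison of MEFs and iPS cells. Ctnnb1 (beta-catenin) read between 12.38 and 12.73 on all 24 arrays, with an iPS minus MEF difference of -0.04 (SE 0.12, limma adjusted p = 0.793). Ctnna1 (alpha-catenin) read between 11.07 and 11.55 and differed by 0.14. Jup (plakoglobin) differed by 0.04, and Ctnnd1 (p120 catenin) by -0.65 (limma adjusted p = 0.00581, under 2-fold).

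Among the 18 measured genes of the adherens junction list (of 21), 4 rose and 3 fell between MEFs and iPS cells. Of all genes 15.4% rose and 15.3% fell, and the median was 0 for the list against 0.01 for all genes. Plekha7, which ties p120 catenin to microtubules, rose by 4.35 and had already risen by 3.06 in day 3 SSEA1+ and 2.79 in day 3 Thy1+ cells. It reached 4.53 above MEFs in the Thy1+ cells of days 9 and 12, where Cdh1 did not exceed 6.43. Arvcf and Pkp4, both of the p120 family, rose by 1.48 and 1.52, while Ctnna2 (neural alpha-catenin) fell by 2.07 and Vcl (vinculin) fell by 1.31. In day 3 SSEA1+ cells 5 genes of the list were higher and 2 lower, beside 7.33% and 8.8% of all genes. Between SSEA1+ and Thy1+ cells 1 was called, Ctnnal1 (higher by 1.17). In the EpCAM split limma called 0 of 19, of which 7 had an unadjusted p under 0.05. The share of all genes at that unadjusted p was not counted, here or for the lists below.

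Few other cadherins were called. Of 13 measured (of 19 listed), 1 was lower in iPS cells than in MEFs, the neural Cdh10, which fell by 2.58. Of all genes 15.3% were lower, and the median was -0.14 for the list against 0.01 for all genes. Cdh13 (T-cadherin, held by a lipid anchor) rose by 1.33 in day 3 SSEA1+ cells and by 3.71 in the Thy1+ cells of days 9 and 12, and Cdh10 differed there by -2.33 and -1.75. Between SSEA1+ and Thy1+ cells and in the EpCAM split limma called 0 of 13, of which 4 and 3 had an unadjusted p under 0.05. Endothelial Cdh5, muscle Cdh15 and neural Cdh8 and Cdh9 were among those not called in any of these comparisons.

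Desmosomes are junctions built on desmosomal cadherins, relatives of the classical ones. Of 8 measured genes (of 14), 4 rose between MEFs and iPS cells and 0 fell, beside 15.4% and 15.3% of all genes. The list median was 1.8 against 0.01 for all genes. Those that rose were Perp (5.61), the desmosomal cadherins Dsg2 (5.14) and Dsc2 (2.86), and the linker Dsp (4.51). Against MEFs 5 of the 8 rose in day 3 SSEA1+ cells, 4 in Thy1- cells and 3 in Thy1+ cells. Of all genes 7.33%, 5.72% and 5.27% rose in these fractions. In SSEA1+ cells Perp was up by 6.33, Dsc2 by 4.59 and Dsp by 2.42, while Dsg2 (0.34, limma adjusted p = 0.107), Dsc1 (-0.26) and Dsc3 (0.05) did not pass. In Thy1+ cells Perp, Dsc2 and Dsp rose by 5.34, 5.06 and 1.38. Dsp, Pkp1 and Perp were higher in SSEA1+ than in Thy1+ cells, by 2.44, 2.43 and 1.61. Dsg2 and Dsp were higher in EpCAM+ cells, by 1.89 and 1.57.

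Of 18 simple epithelial markers, 16 rose between MEFs and iPS cells, with a median of 2.96. On day 3, 5 had risen in SSEA1+ cells (Epcam, Krt19, St14, Spint1 and Spint2). Of all genes 15.4% rose in iPS cells and 7.33% in day 3 SSEA1+ cells. On the MEF-to-iPS scale Cdh1 was ahead of 15 of those 16 genes in day 3 SSEA1+ cells and of 10 of them on day 12. Epcam itself read 6.11 and 5.92 in day 3 SSEA1+ cells, 10.87 on day 12 and 11.49 in GFP+ cells. In Thy1+ cells Cdh1 was ahead of 15 of the 16 on day 3 and 13 on day 12. In the EpCAM split 6 of the 18 rose, beside 0.484% of all genes. Among them were Epcam, the gene of the sorted protein, Krt8 (2.36) and Cldn4 (1.71).

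The known repressors of Cdh1, the Snail, Zeb and Twist factors, and other factors of the epithelial-to-mesenchymal transition (EMT) were lower in iPS cells for 10 of 15 measured genes (of 16). The median was -3.09 against 0.01 for all genes, and 1 gene, Tbx3, was higher by 2. Of all genes 15.3% were called lower and 15.4% higher. In day 3 SSEA1+ cells 6 of the list were called lower and in day 3 Thy1+ cells 6 as well, beside 8.8% and 5.43% of all genes.

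Snai1 read 8.52 and 8.55 in MEFs, 5.17 and 5.42 in day 3 SSEA1+ cells and 5.96 and 5.85 in day 3 Thy1+ cells. The differences from MEFs were -3.24 and -2.64 (limma adjusted p = 1.51e-05 and 0.000166), beside a difference of -3.53 in iPS cells. In Thy1+ cells it read 8.36 and 6.45 on day 6, and the first value is that of the array that stood apart in its control probes. Snai2, the related repressor Slug, differed by -2.96 and -1.81 on day 3, and Zeb2 by -2.48 and -1.59.

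Zeb1 and Twist1 kept more of their signal. Zeb1 read 11.28 and 11.39 in MEFs, 10.61 and 10.76 in day 3 SSEA1+ cells, 10.32 on day 12, 9.8 in GFP+ cells and 8.97, 8.89 and 8.91 in iPS cells. Twist1 read 11.16 and 11.09 in MEFs, 10.33 and 10.45 in day 3 SSEA1+ cells, 9.36 on day 12, 7.43 in GFP+ cells and 7.48, 6.98 and 7.73 in iPS cells. In day 3 SSEA1+ cells they differed from MEFs by -0.65 and -0.73, under 2-fold, and in iPS cells by -2.41 and -3.73. The 1 day 12 SSEA1+ array gave 10.55 for Cdh1, 10.32 for Zeb1 and 9.36 for Twist1. Levels of different probe sets cannot be compared with each other, and whether the same cells held these RNAs was not tested.

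Between SSEA1+ and Thy1+ cells the median of the 15 repressors and EMT factors was -0.78 against 0.02. Of the 15, 7 were lower, beside 5.07% of all genes. Among them were Snai2 (-1.7), Twist2 (-1.75), Prrx1 (-1.5), Snai1 (-1.24), Zeb2 (-1.06) and Twist1 (-1.03). The difference between early and late days was called for Prrx1 (-2.19) and Twist2 (-1.27). In the EpCAM split limma called 0 of 15, of which 8 had an unadjusted p under 0.05; Zeb2 and Prrx1 both differed by -0.76.

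**Figure D5:**
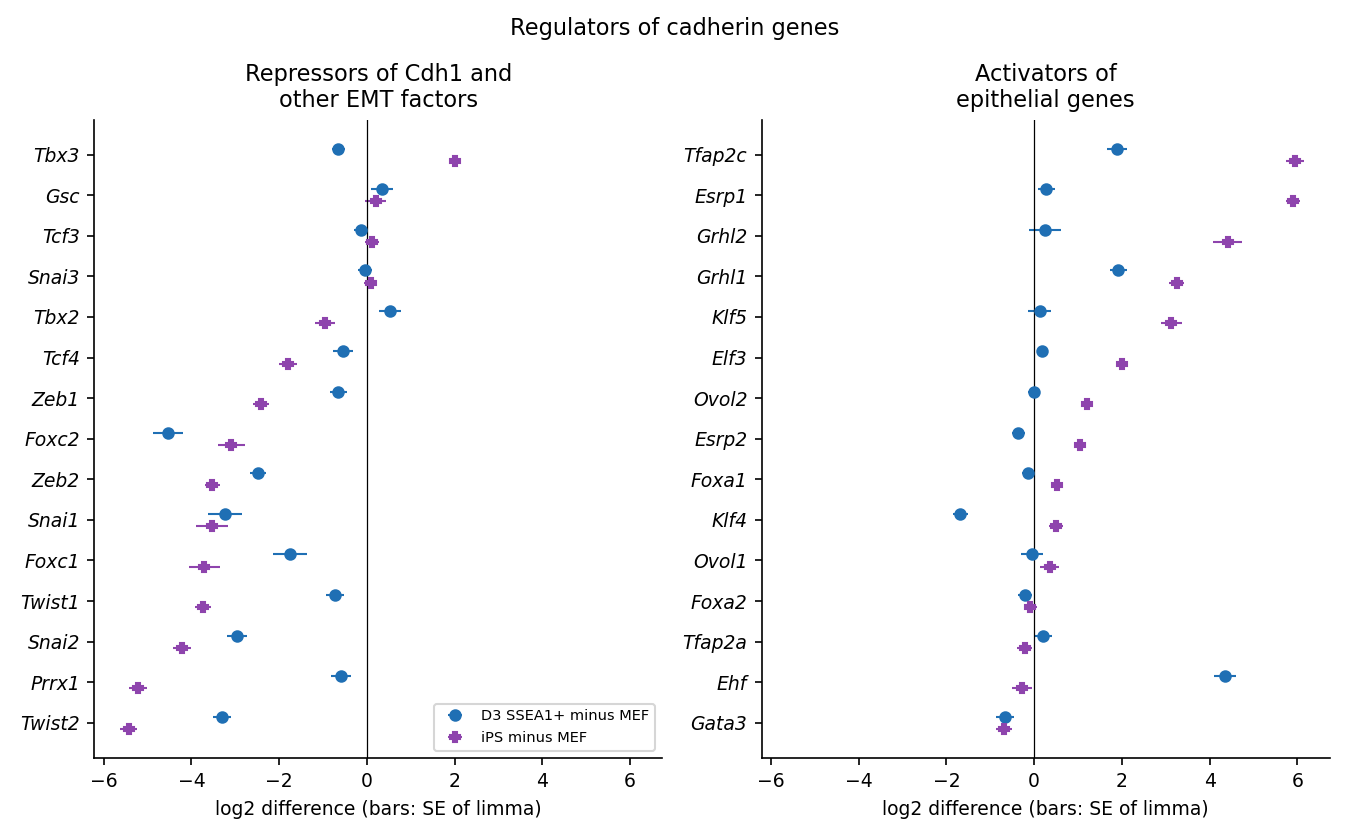
log2 differences from MEFs of the 15 measured repressors and EMT factors (left) and the 15 measured activators of epithelial genes (right), in day 3 SSEA1+ cells (circles) and iPS cells (crosses); bars are the SE of limma. On day 3 Snai1, Snai2, Zeb2, Twist2 and Foxc2 were lower by 2-fold or more and Zeb1, Twist1 and Prrx1 were not, and among the activators Tfap2c, Esrp1 and Grhl2 lay farthest above MEFs in iPS cells (5.95, 5.9 and 4.41), while Ehf was higher on day 3 (4.34) and not in iPS cells (-0.27).

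Of 15 measured activators of epithelial genes (of 16), 8 rose between MEFs and iPS cells, beside 15.4% of all genes. The median was 1.04 against 0.01. Tfap2c (AP-2 gamma) rose by 5.95, the splicing factor Esrp1 by 5.9, and the Grainyhead factors Grhl2 by 4.41 and Grhl1 by 3.25. In day 3 SSEA1+ cells 3 were higher, beside 7.33% of all genes: Ehf by 4.34, Grhl1 by 1.92 and Tfap2c by 1.89. The Klf4 signal read lower there by 1.69. Which of the endogenous and cassette transcripts of Klf4 it reflects was not tested. Tfap2c rose further by 3.25 between days 3 and 6 in SSEA1+ cells, the step in which Cdh1 was also called. Of all genes 1.45% were called higher in this step, and a link between Tfap2c and Cdh1 was not tested.

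Ehf, an Ets factor of epithelia, read 3.21 and 3.57 in MEFs, 7.66 and 7.79 in day 3 SSEA1+ cells, 9.33 and 9.16 on day 6 and 9.08 on day 12. It was back at 3.61 in GFP+ cells and 3.13, 3.09 and 3.13 in iPS cells, where Cdh1 was highest. Esrp1 and Grhl2 read 3.78 and 3.97 and 4.97 and 4.95 in day 3 SSEA1+ cells, within 1 log2 unit of MEFs, and 8.88 and 8.72 on day 12. Between SSEA1+ and Thy1+ cells 5 activators were higher and 1, Klf4, was lower, with a median of 0.29 against 0.02. Of all genes 3.5% were higher and 5.07% lower. In the EpCAM split Ovol2 (1.56) and Tfap2a (1.14) were higher.

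Genes that cut or turn over cadherins mostly went down between MEFs and iPS cells, with 12 of 22 measured (of 23) lower and 2 higher. Of all genes 15.3% were lower and 15.4% higher, and the medians were -1.16 against 0.01. The differences were -4.25 for Mmp14, -3.42 for Mmp2 and -1.41 for Adam10, the main sheddase of E-cadherin and N-cadherin. Cbll1 (Hakai), a ubiquitin ligase for E-cadherin, rose by 1.27. In SSEA1+ against Thy1+ cells Mmp2, Mmp14 and the receptor phosphatase Ptprm were lower, at -2.3, -2.02 and -1.13. Adam10 was not called there or in any day 3 fraction.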

How the data were processed

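The deposited tables hold log2 signals of RMA (robust multi-array average), per the submitters' processing notes and the range of the values; the normalization sets and software version are not given in the sources used here. Symbols came from the platform annotation. Of the probe sets, 18003 have 1 symbol, 287 several and 4426 none in the larger table, and 20393, 691 and 1606 in the smaller; only the first kind was used. Control probes and unnamed probe sets were left out.

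Differences were fitted with limma 3.58.1 in R 4.3.3 on all 24 arrays (9 residual degrees of freedom), on the 18 sorted arrays with day as covariate for differences over days (12), or on the 4 EpCAM arrays (2), and adjusted over all genes. The fit was tested on simulated data. Tables and figures used Python 3.11.15 with pandas 2.3.3 and matplotlib 3.10.9. Late Thy1+ cells are the mean of days 9 and 12.

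The members and lists were chosen with earlier results of these data known. Genes named are the members, genes of the lists (adherens junction, other cadherins, desmosome, simple epithelium, repressors, activators, turnover and cell type markers) and the 5 genes most like each member. Alternatives were the minimum fold, a filter on the dimmest 25% of genes, scaling, probe set choice, variance prior, replicate block, arrays in the fit and single arrays left out. No promoter or protein sequence of the members was used here.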

Additional observations from a re-analysis of the deposited data

Results flagged for a closer look

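For 2 cadherins the SSEA1+ minus Thy1+ difference itself differed between early and late days, by a test of that change over all genes. The Cdh1 difference was larger by 1.61 on days 9 and 12 than on days 3 and 6 (2.12 early and 3.74 late). The Cdh11 difference changed by -1.5 (-1.52 early and -3.02 late). Days 9 and 12 have 1 array a fraction, and both are M2 arrays. With M2 arrays alone Cdh11 gave -1.65, which was not called.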

How the results depend on the processing

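Of 936 values of the 64 member results under other settings, 874 kept their direction and their side of the threshold, and 38 results did so under all settings run. With no minimum fold, Cdh3 iPS minus MEF (-0.99), Cdh2 day 3 SSEA1+ minus MEF (-0.97), Cdh2 iPS minus GFP+ (-0.93), Cdh2 SSEA1+ minus Thy1+ (-0.29) and Cdh11 Thy1- minus Thy1+ (-0.76) were called. With M2 arrays alone (fewer arrays), Cdh3 iPS minus MEF (-1.07) was called. The calls of Cdh11 day 3 Thy1+ minus MEF (-1.4), Cdh1 day 6 minus 3 (0.94), Cdh11 late minus day 3 Thy1+ (1.16), the Cdh11 early-to-late change (-1.65), Cdh11 SSEA1+ minus Thy1- (-1.4) and Cdh1 Thy1- minus Thy1+ (2.17) were lost. Signs of uncalled values turned for Cdh3 day 9 minus 6 (0.03), the early-to-late changes of Cdh2 (-0.02) and Cdh3 (0.17), Cdh3 SSEA1+ minus Thy1- (-0.05) and Cdh2 Thy1- minus Thy1+ (0.04). Without the day 6 Thy1+ M2 array, Cdh1 day 12 minus 9 (1.48) was called (adjusted p from limma 0.0489). Quantile scaling turned Cdh3 GFP+ minus SSEA1+ (0.12), Cdh1 late minus day 3 Thy1+ (-0.08) and Cdh3 SSEA1+ minus Thy1+ (0.02), and median scaling turned the Cdh3 values (0.08 and 0.01). The mean of both Cdh2 probe sets (-1.09) and the other one (-1.26) called Cdh2 iPS minus GFP+, and the other one called day 6 minus 3 (-1.08); the cause was not tested for any of these. Single arrays left out gave ranges of -1.15 to -0.86 for Cdh3 iPS minus MEF, -1.01 to -0.93 for Cdh2 day 3 SSEA1+ minus MEF, 0.92 to 1.6 for Cdh1 day 6 minus 3, -0.07 to 0.38 for Cdh3 day 6 minus 3, -0.42 to 0.03 for Cdh3 day 9 minus 6, -0.35 to 0.12 for Cdh11 and -1.08 to -0.71 for Cdh2 iPS minus GFP+, and -0.02 to 0.09 for Cdh1 late minus day 3 Thy1+. For Cdh3 they were -0.18 to 0.05 for the early-to-late change, -0.07 to 0.05 for SSEA1+ minus Thy1+, -0.04 to 0.07 for SSEA1+ minus Thy1- and -0.06 to 0.04 for Thy1- minus Thy1+. In the EpCAM split they were 1.4 to 1.97 for Cdh1 and -1.66 to -1.33 for Cdh11, all uncalled with 1 degree of freedom left. Deviations of arrays with the same number were at most weakly related over all genes (21 pairs of groups, r from -0.21 to 0.21, median -0.01). A weak relation cannot show whether the numbers mark paired cultures or animals, and the labels do not say. With the replicate block no member call changed, and Cdh1 late minus day 3 Thy1+ went from 0.03 to -0.05.

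Counts of calls over all genes moved by more than 1.5 times mostly with no minimum fold, for example from 3631 to 6624 for iPS minus MEF, from 1905 to 4057 for day 3 SSEA1+ minus MEF and from 1012 to 4656 for SSEA1+ minus Thy1+. With M2 arrays alone day 6 minus 3 in SSEA1+ cells went from 213 to 7 calls, and SSEA1+ minus Thy1- from 106 to 0. Signal near the low end of the arrays limits Cdh1 in MEFs, and low signal can limit Cdh11 and Cdh3 in the EpCAM split.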
